A study of Mus musculus with 6 samples.

Results

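The replication-dependent histone genes of the mouse were examined in eosinophils grown from bone marrow and exposed to the cytokine IL-33. The members were all genes of the deposited table whose symbol begins with an older histone cluster name (Hist1h to Hist4h), which gave 68 of 23420 genes. Their symbols carry the cluster and the histone class. The class counts were 6 genes for the linker histone H1, 18 for H2A, 19 for H2B, 12 for H3 and 13 for H4. By genomic cluster, 54 lie in cluster 1 on chromosome 13, 10 in cluster 2 on chromosome 3, 3 in cluster 3 on chromosome 11 and 1 in cluster 4 on chromosome 6. Both groups came from wild-type (WT) marrow. It was grown with stem cell factor (SCF) plus FLT3-L, a ligand for progenitor growth, before IL-5 at 20 ng/mL was given up to day 14. Dead cells were removed before treatment. The treated group (3 libraries) then received 2.5 ng/mL of IL-33 over 3 hours, and the control group (3 libraries) received PBS, the vehicle. IL-33 is an alarmin, a cytokine set free from damaged tissue. No allele or transgene is given in the labels for either group.

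DNA is wound around a protein core of histones H2A, H2B, H3 and H4, and the linker histone H1 sits where DNA enters and leaves that core. Dividing cells make most of their histones during S phase from clustered genes without introns, whose mRNAs end in a stem-loop in place of a poly(A) tail. The stem-loop binding protein, encoded by Slbp, holds that hairpin, and U7 small nuclear RNA guides the cut behind it. The factor NPAT drives transcription of these genes in S phase. Libraries made from poly(A)-selected RNA miss most of these messages. Here the libraries were made from total RNA after depletion of ribosomal RNA, with no selection for poly(A), so transcripts without a tail could be sequenced.

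The stem-loop letters are shown first because they define this kind of message. A consensus for the hairpin and its loop was searched on the transcript strand of the annotated mRNAs (GENCODE vM21, build GRCm38/mm10), and 46 of the 68 members carried it after the stop codon. It began 21 to 58 bases after the stop codon, with a median of 31. Of the 22 members without it, 18 have fewer than 50 annotated bases after the stop codon or no annotated stop codon. In those with a stop codon, the letters may lie outside the annotated transcript. The member without a stop codon is Hist3h2bb-ps, a processed pseudogene, which could not be scored. Among 55382 other annotated genes, 40 (0.0722%) held the consensus anywhere in a transcript, and within 100 bases after a stop codon only H2afx and H2bfm, both histone variant genes, did. The 16 bases of stem and loop are in capitals below, with 5 transcript bases on each side, for members to which the results return.
Hist1h1c: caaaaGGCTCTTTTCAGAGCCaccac
Hist1h1e: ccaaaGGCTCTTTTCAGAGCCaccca
Hist1h2bb: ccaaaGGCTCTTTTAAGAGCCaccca
Hist1h3f: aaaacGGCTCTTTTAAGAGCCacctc
Hist1h4f: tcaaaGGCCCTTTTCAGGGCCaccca
Hist1h4d: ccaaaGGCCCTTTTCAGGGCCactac
Hist4h4: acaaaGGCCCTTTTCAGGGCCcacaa

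The hairpin letters differed by class. The 12 H4 genes with a hairpin carried other stem letters than the remaining classes, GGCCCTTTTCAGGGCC in 7 genes, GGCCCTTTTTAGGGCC in 2, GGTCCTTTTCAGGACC in 2 and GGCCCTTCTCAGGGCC in 1. In H1, H2A, H2B and H3 genes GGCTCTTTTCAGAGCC was the most frequent form, in 3 H1, 10 H2A, 8 H2B and 5 H3 genes. A form that differs from it in the loop, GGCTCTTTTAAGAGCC, occurred in 1 H1, 2 H2B and 3 H3 genes. No stem-loop was found in the annotated transcripts of Hist1h1a, Hist1h1b, Hist2h2ab, Hist2h2bb and Hist1h2bc, which recur below. In 18 members the annotated transcript ran more than 300 bases beyond the stem-loop. Among these, the letters AATAAA, a poly(A) signal, lay near the annotated end of Hist1h1c, Hist1h2be, Hist1h4j, Hist2h3c1, Hist2h4, Hist3h2a and Hist4h4. They did not in the others, such as Hist1h1d, Hist1h1e and Hist1h4d. Whether reads of these genes came from messages with a tail was not tested.

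Promoters of 6 genes called below are shown next, from H1, H2B and H4, since classes of histone genes differ in the elements they carry. No promoter was matched for Hist1h2bc and Hist1h3f, and that of Hist1h1c is not printed. Each line is the 150 bases before the RefSeq start (build GRCm38.p6), in gene direction, with capitals at 5 motifs, each searched on both strands. They were TATAAA of core promoters, the widespread element CCAAT, the octamer ATTTGCAT known from H2B promoters, the H1 box AAACACA and the H4 promoter element GGTCCG. Hist1h1a lies at chr13:23763518-23763667 on the plus strand, Hist1h1b at chr13:21780626-21780775 on the minus strand, Hist1h1e at chr13:23622559-23622708 on the minus strand, Hist1h2bb at chr13:23746584-23746733 on the plus strand, Hist2h2bb at chr3:96269550-96269699 on the plus strand and Hist1h4f at chr13:23551669-23551818 on the minus strand.
Hist1h1a: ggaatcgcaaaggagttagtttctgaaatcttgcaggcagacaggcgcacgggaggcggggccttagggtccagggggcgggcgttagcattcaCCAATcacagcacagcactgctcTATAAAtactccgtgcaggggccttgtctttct
Hist1h1b: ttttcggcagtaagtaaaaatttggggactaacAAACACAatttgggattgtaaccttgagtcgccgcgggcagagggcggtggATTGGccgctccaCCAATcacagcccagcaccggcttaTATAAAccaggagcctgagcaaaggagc
Hist1h1e: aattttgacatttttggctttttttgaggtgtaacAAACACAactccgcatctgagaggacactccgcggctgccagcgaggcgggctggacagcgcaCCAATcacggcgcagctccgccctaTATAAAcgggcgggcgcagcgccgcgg
Hist1h2bb: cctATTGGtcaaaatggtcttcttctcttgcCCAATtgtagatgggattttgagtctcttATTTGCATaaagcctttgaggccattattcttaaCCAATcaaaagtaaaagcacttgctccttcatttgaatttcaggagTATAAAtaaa
Hist2h2bb: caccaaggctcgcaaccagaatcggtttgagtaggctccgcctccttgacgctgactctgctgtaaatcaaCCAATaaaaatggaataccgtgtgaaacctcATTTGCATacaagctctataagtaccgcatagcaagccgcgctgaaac
Hist1h4f: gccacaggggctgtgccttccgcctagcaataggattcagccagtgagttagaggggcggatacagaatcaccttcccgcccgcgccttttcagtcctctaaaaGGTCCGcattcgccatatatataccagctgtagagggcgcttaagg

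Over the longer RefSeq windows, 250 bases before to 50 after the start, 60 of the 68 members were matched. TATAAA was present in 35 of the 60 (58.3%), against 14.2% of 27025 promoters of the table. CCAAT was present in 51 of the 60 members (85.0%), against 37.9% of all promoters. All 6 H1, 17 H2A, 15 H2B and 10 H3 promoters held CCAAT, and 3 of 12 H4 promoters did. ATTTGCAT was found in 7 of 17 H2A and 6 of 15 H2B promoters, in no promoter of the other classes, and in 1.75% of all promoters. Windows of neighbouring H2A and H2B genes can overlap, so some sites were counted in both classes. This held for Hist1h2aa with Hist1h2ba, Hist1h2ae with Hist1h2bg and Hist1h2ah with Hist1h2bk. AAACACA was found in 5 of 6 H1 promoters and 7.14% of all promoters, and Hist1h1a was the H1 gene without it. It was also found in 2 of 17 H2A and 2 of 15 H2B promoters. GGTCCG was found in 11 of 12 H4 promoters and 8.39% of all promoters, and also in 1 of 15 H2B and 1 of 10 H3 promoters. The motifs searched overlapped each other in 1 member's promoter. These matches describe letters in a window and not bound sites.

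Values are normalized counts, gene counts that the authors had divided by one factor per library. Reads recovered from them numbered between 4229504 and 7129435 per library outside Rn45s, which encodes the precursor of ribosomal RNA. Its share of all reads was 24.3% in IL-33 replicate 1, 59.6% in replicate 2 and 54.8% in replicate 3, against 13.7% to 24.8% under PBS. Whether replicates are separate mice, cultures or repeat preparations is not in the labels, so a p-value here reflects spread among libraries alone, possibly technical. Of 10 eosinophil markers tested, 9 fell (limma, adjusted p under 0.05), against 14.4% of all genes tested. On omitting PBS replicate 1, 2 or 3, 5, 4 and 5 of 9 fell. On omitting IL-33 replicate 2, 6 of 10 did, and with edgeR 6 of 10 did. The summed normalized count of these 10 markers was 18843 to 31334 after IL-33 against 51552 to 62607 under PBS. Epx, the eosinophil peroxidase, stood at 1061 ± 528 (SD, n = 3) after IL-33 and 3999 ± 431 in PBS. In bulk samples fewer cells of a type and less RNA per cell cannot be told apart.

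Histone genes took 6704, 4713 and 4068 reads after IL-33 (replicates in order) and 11502, 10719 and 12245 reads under PBS. This was 0.0940% to 0.108% of the reads outside Rn45s after IL-33 and 0.156% to 0.174% in PBS, ranges that did not overlap. Of the 68 members, 36 passed the filter of a normalized count of at least 10 in at least 3 libraries, 25 had reads but were not tested, and 7 were listed at 0 in every library (Hist1h2aa, Hist1h2ao, Hist1h2ap, Hist1h2bq, Hist1h2br, Hist1h4m and Hist2h2aa1). Reads from near-identical copies may not be assigned to 1 gene. In 34 members fewer than 50% of the 50-base words of the annotated transcript occur in no other gene. The median share of such words was 64.3% in tested members and 19.1% in the others, so the values of single genes, and above all low ones, are uncertain.

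Among the 36 members tested, Hist1h1a rose after IL-33 and 8 members fell (limma on log2(normalized count + 1), Benjamini-Hochberg adjusted p under 0.05 over all genes tested). Over all 10544 genes tested, 17.4% were called higher and 14.4% lower. The 8 that fell were Hist1h1b, Hist1h1c, Hist1h1e, Hist1h2bb, Hist1h2bc, Hist1h3f, Hist1h4f and Hist2h2bb. Of the 9 called, 8 lie in cluster 1 (29 tested) and 1 in cluster 2 (5 tested), while the single tested members of clusters 3 and 4 were not called. In 11 members every IL-33 library lay below every PBS library, against 24.7% of all genes tested, and in 1 member every IL-33 library lay above, against 25.5%. Hist1h2bc, counted in the 8 and the 11, passed the filter only through the PBS libraries, so its groups had to lie apart. In either direction 9 members (25.0%) were called, against 31.9% of all genes. The share of histone genes called lower (22.2%) was near that of all genes, and the share called higher (2.78%) stood below it. The median log2 fold change was −0.46 over the members tested and −0.03 over all genes tested. Leaving out a PBS library lowered the number that fell, to 4 (replicate 1), 3 (replicate 2) or 3 (replicate 3), and leaving out IL-33 replicate 1 raised it to 14. Calls outside the histones moved too. The number of S-phase genes that fell went from 18 to 10, 8 and 8 without PBS replicate 1, 2 or 3, and to 22 without IL-33 replicate 1. The share of all genes called with a library left out was not counted, so such moves, here and below, cannot be read as particular to a list.

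The counts moved with the scaling, as those of all genes did. With equal totals without Rn45s, which moved the median of all genes to −0.45, 18 members were called lower, against 33.9% of all genes, and Hist1h1a was called higher, against 9.02%. With equal totals, which moved the median of all genes to −1.06, 29 members were called lower, against 50.1% of all genes, and 0 higher, against 2.50%. The edgeR quasi-likelihood test on recovered reads called 7 members lower (14% of all genes) and 2 higher (18.1%), and DESeq2 called 10 lower (15.4%) and 2 higher (21.2%). In both, the gene called higher beside Hist1h1a was Hist2h2ab.

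**Figure D1:**
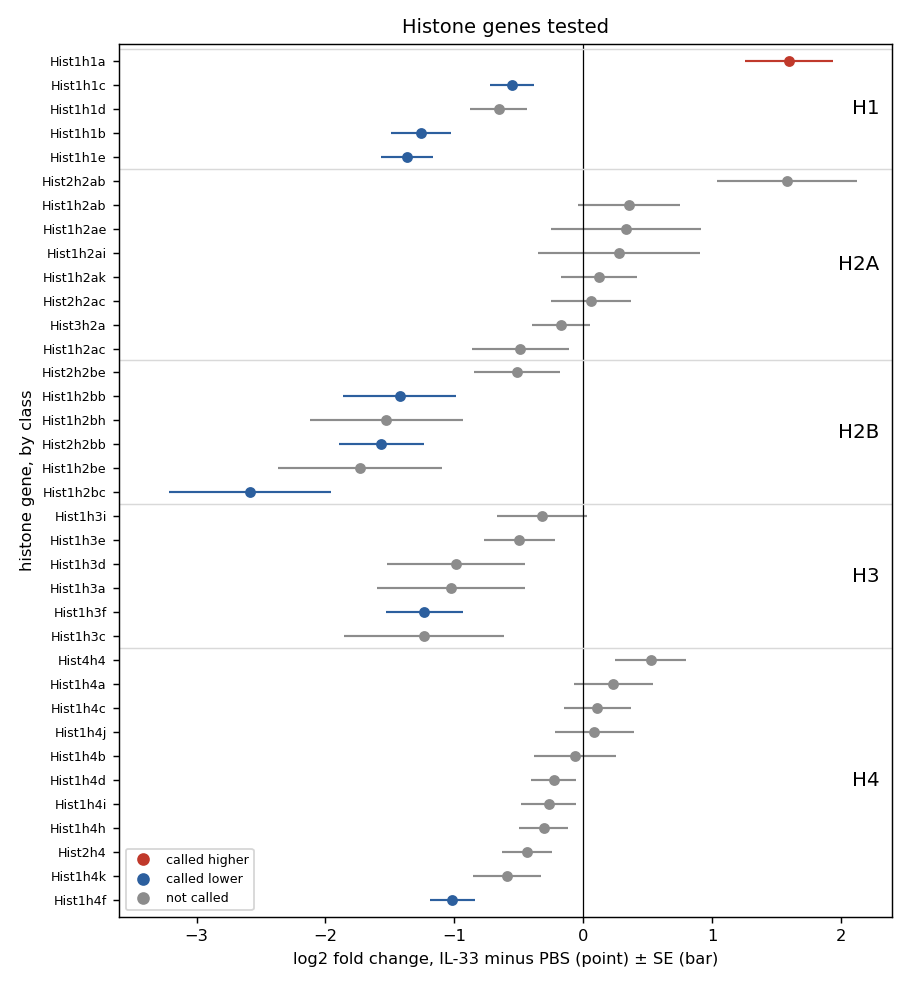
Log2 fold change (IL-33 minus PBS, horizontal axis) of the 36 histone genes tested, grouped by class, with bars for the standard error; colours mark genes called higher, lower or not called by limma. Hist1h1a at 1.60 is the gene called higher, and the H2B genes all lie below 0.

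The groups lay differently in the different classes. Sums over all members of a class need no filter. They do not depend on how reads were split among copies of the class only if such reads were counted, and the multi-mapping setting is not known. The H2B sum stood at 194, 143 and 102 after IL-33 and 381, 372 and 431 under PBS. Hist2h2bb, whose reads cannot be assigned with certainty (below), gave 195.6 of the PBS mean of 394.5. The H2B groups did not overlap, and the ratio of means (IL-33 over PBS) was 0.371. The H3 sum was 161, 103 and 112 after IL-33 and 266, 177 and 215 in PBS, a ratio of 0.572, again with no overlap. The H1 sum was 3726 ± 274 (SD, n = 3) after IL-33 and 4869 ± 335 in PBS, a ratio of 0.765 with no overlap. For H4 the sum was 1958 ± 210.4 after IL-33 and 2288 ± 207 in PBS, and the groups overlapped. For H2A the sum was 495, 966 and 841 after IL-33 and 749, 648 and 581 in PBS, so the groups overlapped. IL-33 replicate 1 was the lowest of the 6 libraries and replicates 2 and 3 the highest. Hist2h2ab, whose exonic bases overlap another gene over 68.2% (below), gave 159.9 of the H2A mean of 767.3 after IL-33. In PBS it gave 43.9 of 659.5.

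In IL-33 replicate 1, with an Rn45s share of 24.3%, the H2B sum of 194 lay below each PBS library, and without that library the H2B ratio was 0.310. The part of the Rn45s share in the class sums was not tested. The class sums are given as a description and were not tested. With equal totals without Rn45s the ratios were 0.570 for H1, 0.862 for H2A, 0.280 for H2B, 0.430 for H3 and 0.636 for H4, where the H4 groups no longer overlapped (1564 to 1767 after IL-33, 2461 to 2867 under PBS). The order of the classes stayed the same under this scaling, while H2A turned from a ratio of 1.16 to one below 1. As a share of all histone signal, H2B went from 4.69% ± 0.395 in PBS to 2.22% ± 0.900 after IL-33, and H2A from 7.83% ± 0.897 to 11.2% ± 2.68. The H2B share did not overlap between groups. The H2A share did, at 8.22% in IL-33 replicate 1 and 8.39% in PBS replicate 1.

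**Figure D2:**
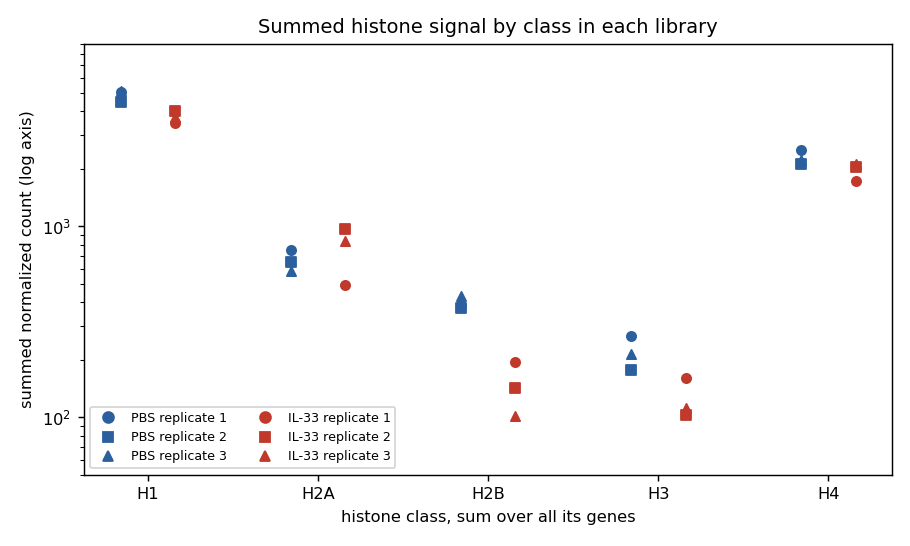
Summed normalized count (log axis) of all genes of each histone class in each library, IL-33 and PBS replicates 1 to 3 as separate markers. The H1, H2B and H3 sums separate the groups, with H2B at 102 to 194 after IL-33 and 372 to 431 in PBS, and the H2A and H4 sums overlap.

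Linker histone genes made up most of the summed histone normalized count, 55.5% ± 1.72 after IL-33 and 57.8% ± 1.74 in PBS. These shares are not divided by length, so they are not shares of transcripts. Coding lengths differ, with 636 bases in Hist1h1c and 309 in Hist1h4d. Linker histones help pack nucleosome arrays, and several subtypes coexist in a cell. Hist1h1c was the histone gene with the most signal per kilobase of coding sequence in PBS (4175), followed by the H4 genes Hist1h4d (2030) and Hist2h4 (1568) and by Hist1h1e (1353), all as PBS means of normalized count per kilobase. Per kilobase of merged annotated exons Hist1h1c was also first, at 1702, but other positions changed because annotated ends differ. Hist1h1d, with 7425 annotated bases, stood at 797 per kilobase of coding sequence and 71.2 per kilobase of exons.

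Hist1h1a (chr13:23763666-23764406, 1 exon) encodes the subtype H1.1. Its normalized counts were 966, 1153 and 1089.8 after IL-33 and 639, 295 and 231 in PBS. All IL-33 libraries lay above all PBS libraries, and PBS replicate 1 was more than the other PBS libraries. The log2 fold change was 1.60 (SE 0.343, limma adjusted p = 0.0116). Every 50-base word of its transcript occurs in no other annotated gene (100%), and no other gene's exons overlap it. Leaving out IL-33 replicate 2 (log2 fold change 1.54), PBS replicate 2 (1.47) or PBS replicate 3 (1.29) ended the call, as did scaling to equal totals (0.56, where the median of all genes was −1.06). Adjusted p lay between 0.000814 and 0.236 over 19 alternatives. Within the H1 sum, the share of Hist1h1a was 28.7% ± 0.691 after IL-33 and 7.95% ± 4.27 in PBS.

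The other linker histone genes tested lay lower after IL-33. Hist1h1b (chr13:21779883-21780625), encoding H1.5, had 179, 209 and 125 after IL-33 and 372, 467 and 374 in PBS. Its groups were far apart, with a log2 fold change of −1.26 (SE 0.231, limma adjusted p = 0.00664). Hist1h1e (chr13:23620629-23622558), encoding H1.4, had 410.0, 323 and 297 after IL-33 and 722, 929.8 and 1015 in PBS. Every PBS library held at least 722 against at most 410.0, and the log2 fold change was −1.37 (SE 0.203, limma adjusted p = 0.00282). Both calls held in all 19 alternatives. Of the Hist1h1e exonic bases, 25.7% overlap Hist1h2be or Gm11398 on the same strand, so part of their reads may not be told apart.

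Hist1h1c (chr13:23738808-23740367), encoding H1.2, had 1643, 1878 and 1871 after IL-33 and 2778, 2202 and 2985 in PBS. The groups did not overlap, the log2 fold change was −0.55 (SE 0.170), and the limma adjusted p of 0.0396 was close to the threshold. The call was lost in 8 of 19 alternatives, among them the removal of IL-33 replicate 2 (−0.59), IL-33 replicate 3 (−0.58), PBS replicate 1 (−0.52), PBS replicate 2 (−0.68) or PBS replicate 3 (−0.46), with adjusted p between 0.00295 and 0.175 over all 19. Hist1h1d, encoding H1.3, had 259, 438 and 329 after IL-33 and 503, 584 and 498 in PBS. It did not pass (log2 fold change −0.66, SE 0.220, limma adjusted p = 0.0516), although its groups did not overlap, and it passed in 10 alternatives, such as the omission of IL-33 replicate 1 (−0.47) or 2 (−0.85). Hist1h1t, the testis subtype, was below the filter, with values of 0 to 6.78.

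**Figure D3:**
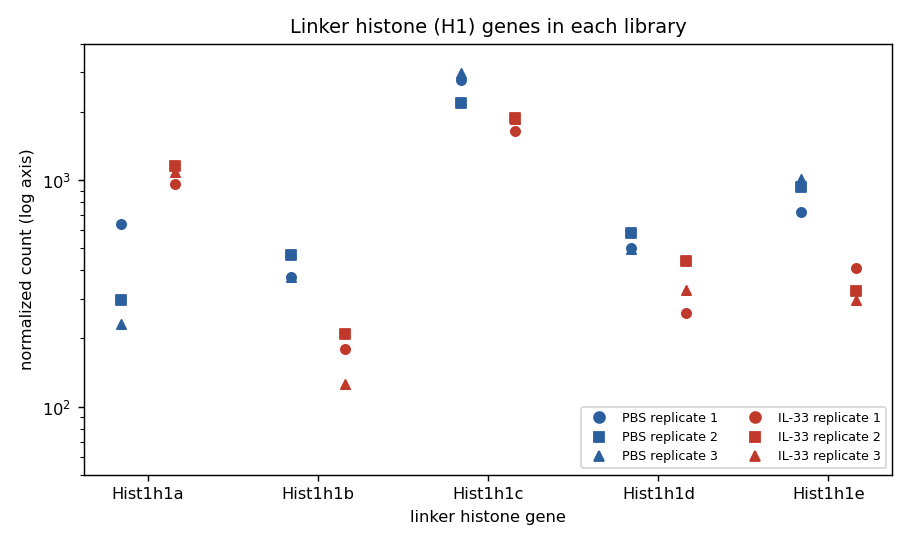
Normalized count (log axis) of the linker histone genes tested in each library, with IL-33 and PBS replicates 1 to 3 as separate markers. Hist1h1a has its IL-33 libraries (966 to 1153) above its PBS libraries (231 to 639), and the other genes have them below.

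H2B genes encode a core histone that pairs with H2A. All 6 tested H2B genes had a log2 fold change below 0, with a median of −1.55, and 3 of them fell, against 14.4% of all genes. The number that fell was 1 on omitting PBS replicate 1, 0 on omitting PBS replicate 2 or 3, and 5 on omitting IL-33 replicate 1. In 5 of the 6 the groups did not overlap. Hist1h2bc, counted in the 3 and the 5, passed the filter through the PBS libraries alone and so had to differ. Counting genes with any read, tested or not, 12 of 17 H2B genes (70.6%) had all IL-33 libraries below all PBS libraries, against 18.8% of the 16669 genes with reads. Without Hist3h2bb-ps, a member annotated as a processed pseudogene, it was 11 of 16 (68.8%). In the other classes this was so for 4 of 6 H1, 0 of 14 H2A, 2 of 12 H3 and 1 of 12 H4 genes. These counts rest on few reads, with H2B totals of 216, 93 and 60 after IL-33 and 490, 511 and 617 under PBS, and without molecular identifiers, reads are not independent molecules.

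Hist2h2bb (chr3:96269752-96270132), the H2B gene with the highest normalized count, had 98.9, 70.7 and 39.0 after IL-33 and 167, 209.5 and 210.4 in PBS. The groups lay well apart, with a log2 fold change of −1.57 (SE 0.331, limma adjusted p = 0.0109). The call was lost on omitting PBS replicate 2 (−1.51) or 3 (−1.51), with adjusted p between 0.000112 and 0.0592 over 19 alternatives. All of its annotated exonic bases (100%) overlap Gm20628 on the opposite strand or Gm42743 on the same strand, 2 predicted genes, so its reads cannot be assigned with certainty.

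Hist1h2bb (chr13:23746734-23747241) had 18.0, 6.15 and 6.78 after IL-33 and 30.3, 23.3 and 25.9 in PBS, with a log2 fold change of −1.42 (SE 0.437, limma adjusted p = 0.0395). Its groups did not overlap, but it rested on 20, 4 and 4 reads after IL-33, and the call was lost without IL-33 replicate 2 (−1.17) or 3 (−1.23) and without PBS replicate 1 (−1.33), 2 (−1.51) or 3 (−1.44). It was lost in 9 of 18 alternatives in all, and its log2 value shrank to −0.53 with replicate 1 as the only IL-33 library, −1.01 with quantile normalization and −1.24 with edgeR. Hist1h2bc (chr13:23684199-23692908) had 3.60, 1.54 and 0 after IL-33 and 11.6, 14.6 and 11.9 in PBS, from 4, 1 and 0 reads and from 15, 20 and 17 reads. It was called lower (log2 fold change −2.59, SE 0.630, limma adjusted p = 0.0181), also in the 15 alternatives in which it was tested. Its entry through the PBS libraries alone fixed that the groups lay apart, so calls made with this filter are no support for a fall. Hist1h2bc was not tested on omitting any 1 of the PBS libraries or with a filter of 50, where it no longer passed. Those settings say nothing about the call. A count of 0 allows up to 3 reads.

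The 3 tested H2B genes that were not called had lower means after IL-33. Hist2h2be had 16.2, 29.2 and 35.6 after IL-33 and 38.8, 38.6 and 34.2 in PBS, groups that overlapped (log2 fold change −0.52, SE 0.334, limma adjusted p = 0.256). Hist1h2be had 15.3, 10.8 and 1.69 after IL-33 against 26.4, 25.5 and 25.2 in PBS, and Hist1h2bh had 11.7, 4.61 and 1.69 against 21, 12.4 and 14.7. Neither of those overlapped between groups, and neither passed (limma adjusted p = 0.0672 and 0.0795), but both were called lower on omitting IL-33 replicate 1 (−2.24 and −2.10). Among members below the filter, the highest were Hist1h2bf, Hist1h2bg and Hist1h2bj. Hist1h2bf had 6.29, 4.61 and 3.39 after IL-33 and 17.1, 7.28 and 23.8 in PBS. Of the 11 H2B genes with reads that were not tested, 7 had groups apart with IL-33 below (6 of 10 without the pseudogene), against 8.64% of all untested genes with reads.

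**Figure D4:**
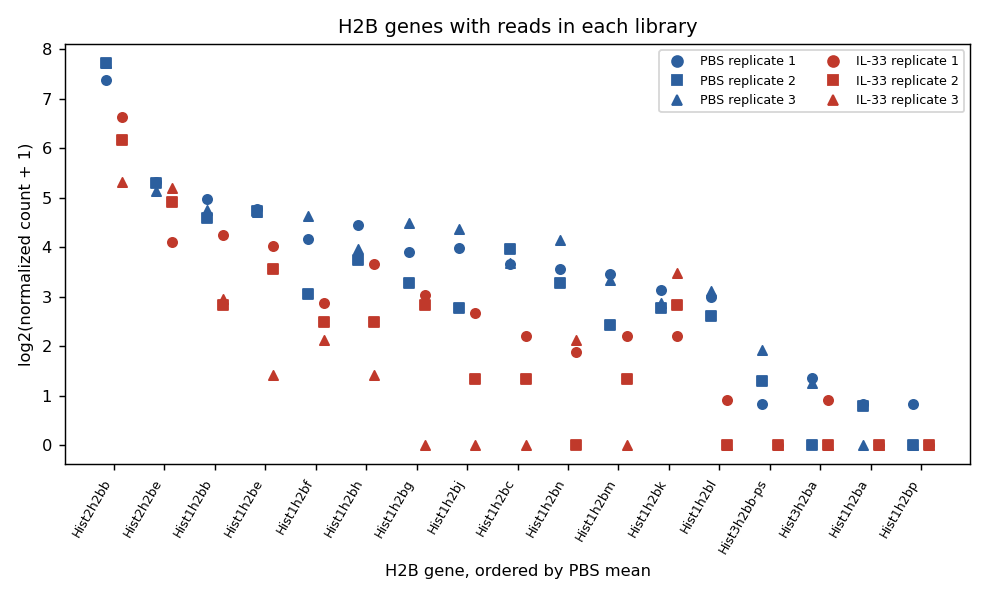
Log2(normalized count + 1) of H2B genes with reads in each library, ordered by PBS mean, with IL-33 and PBS replicates 1 to 3 as separate markers. In 12 of the 17 genes all IL-33 libraries lie below all PBS libraries.

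The H2A genes, whose protein binds H2B, gave a different picture. No H2A gene of the 8 tested was called, against 31.9% of all genes. The median log2 fold change was 0.20, and the groups overlapped in all 8. The sign of that median depended on the scaling, at −0.78 with equal totals and −0.19 with equal totals without Rn45s, and it was −0.03 and −0.06 on omitting IL-33 replicate 2 or 3. Hist3h2a, the H2A gene with the highest normalized count and the tested gene of cluster 3, had 237, 325 and 220.3 after IL-33 and 361, 265 and 256 in PBS. These overlapped (log2 fold change −0.18, SE 0.225, limma adjusted p = 0.563), and 33.0% of its exonic bases overlap Trim17 or Gm44313. Hist2h2ac had 95.3, 177 and 220.3 after IL-33 and 132, 167 and 148 in PBS, with a log2 fold change of 0.06 (SE 0.309, limma adjusted p = 0.893). Its IL-33 libraries spanned the PBS values on both sides. The signs of the low H2A genes depended on the scaling. The 5 cluster 1 genes tested (Hist1h2ab, Hist1h2ac, Hist1h2ae, Hist1h2ai and Hist1h2ak) had log2 fold changes from −0.49 (Hist1h2ac) to 0.36 (Hist1h2ab), and each had overlapping groups. The 6 H2A genes with reads below the filter had means of 0.129 to 6.52 over all libraries, and in 0 of them did the groups lie apart.

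Hist2h2ab had 50.3, 259.9 and 169 after IL-33 and 56.7, 39.3 and 35.6 in PBS. IL-33 replicate 1 lay among the PBS libraries and replicates 2 and 3 lay far above them. The log2 fold change was 1.58 (SE 0.541) and did not pass (limma adjusted p = 0.0550), and without IL-33 replicate 1 it was 2.26 and was called. The edgeR and DESeq2 tests on the recovered reads also called it higher (1.83 and 1.87). Its annotated exonic bases overlap Gm15444 on the opposite strand over 68.2%. IL-33 replicates 2 and 3 are also the libraries with the highest Rn45s shares, and the part of that in this result was not tested.

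H2A and H2B genes often sit head to head, sharing the stretch between their starts as a promoter. The annotation held 13 such pairs with starts 173 to 306 bases apart, and both genes had reads in 10 of them. In 7 of the 10 pairs the H2B gene had all IL-33 libraries below all PBS libraries, and in 0 pairs did the H2A gene, against 18.8% of all genes with reads. Some H2A genes of these pairs had few reads over all libraries: Hist1h2ag and Hist1h2ah 7 each, Hist1h2ad 8 and Hist1h2an 11. The others had 48 (Hist1h2ai) to 1800 (Hist3h2a). Counts of 7 to 11 reads leave little room for groups to lie apart. Where the H2B gene lay apart, Hist1h2ag (7, Hist1h2bj 62) and Hist1h2ad (8, Hist1h2bf 78) had fewer reads than their partners. Those with more were Hist1h2ai (48, Hist1h2bl 28), Hist1h2ae (97, Hist1h2bg 73), Hist1h2ac (158, Hist1h2bc 57), Hist1h2ak (561, Hist1h2bn 55) and Hist3h2a (1800, Hist3h2bb-ps 7). The part of read number in the contrast with the H2B genes was not tested. The closest pair holds Hist3h2bb-ps, annotated as a processed pseudogene, with 0 reads after IL-33 and 1, 2 and 4 in PBS. Without it the count was 6 of 9 pairs. Hist1h2ak and Hist1h2bn, whose starts lie 296 bases apart, had means of 94.8 and 2.03 after IL-33 and 86.6 and 12.1 in PBS. Hist1h2ac and Hist1h2bc, 251 bases apart, were both tested, with log2 fold changes of −0.49 (not called) and −2.59 (called). Hist2h2ac and Hist2h2be were the other pair with both genes tested, at 0.06 and −0.52, and neither was called. The difference between the genes of a pair was not tested.

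Of 6 H3 genes tested, Hist1h3f fell, against 14.4% of all genes, and the median log2 fold change was −1.01. Hist1h3f (chr13:23544052-23545312) had 14.4, 15.4 and 11.9 after IL-33 and 34.9, 27.6 and 39.8 in PBS. The groups did not overlap, and the log2 fold change was −1.23 (SE 0.297, limma adjusted p = 0.0174). The call was lost without PBS replicate 1 (−1.21), PBS replicate 2 (−1.37) or PBS replicate 3 (−1.12), and on omitting IL-33 replicate 1 Hist1h3a (−1.61) and Hist1h3c (−1.55) were called lower as well. Hist1h3e, the H3 gene with the highest normalized count, had 55.7, 52.3 and 40.7 after IL-33 and 91.6, 51.7 and 71.3 in PBS, with 1 PBS library inside the IL-33 range (log2 fold change −0.49, SE 0.278, adjusted p = 0.196). Hist1h3c had 17.1, 3.08 and 20.3 against 30.3, 32 and 18.9, and also overlapped (−1.24, SE 0.622, adjusted p = 0.156). The remaining tested H3 genes, Hist1h3a (−1.03), Hist1h3d (−0.99) and Hist1h3i (−0.32), were below 0 on the log2 scale with overlapping groups, and none was called. Of 6 H3 genes with reads below the filter, 1 had IL-33 below PBS throughout. The hairpin letters of Hist1h3f printed above, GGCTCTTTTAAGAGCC, also occur in Hist1h3e and Hist1h3c.

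H4 genes encode an identical core histone from many loci, so their levels can be set beside each other as sources of 1 protein. Of 11 tested, Hist1h4f fell, against 14.4% of all genes, and 10 were not called, with a median log2 fold change of −0.23. Hist1h4f (chr13:23551258-23551648) had 121, 134 and 136 after IL-33 and 248, 292 and 255 in PBS. The spread within each group was small against the gap (log2 fold change −1.02, SE 0.176, limma adjusted p = 0.00532), and the call held in all 19 alternatives. Hist1h4d, the H4 gene with the highest normalized count, had 474, 512 and 625 after IL-33 and 661, 568 and 653 in PBS. Its groups overlapped (−0.23, SE 0.175, limma adjusted p = 0.329). Per kilobase of merged exons in PBS, Hist1h4f (677) stood above Hist1h4d (551). Hist2h4 of cluster 2 had 401, 326 and 339 after IL-33 and 578, 399 and 477 in PBS, where PBS replicate 2 lay just under IL-33 replicate 1 (−0.44, SE 0.195, adjusted p = 0.118). It was called lower on omitting IL-33 replicate 1 (−0.53). The other 7 tested H4 genes of cluster 1 had log2 fold changes from −0.59 (Hist1h4k) to 0.23 (Hist1h4a), with overlapping groups in each. Hist1h4f and Hist1h4d share the hairpin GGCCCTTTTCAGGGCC, and both their promoters hold GGTCCG.

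Hist4h4 (chr6:136801553-136804415), the lone gene of cluster 4, had 163, 303 and 319 after IL-33 and 195, 167 and 161 in PBS. IL-33 replicate 1 lay inside the PBS range and replicates 2 and 3 lay above it, the order seen for Hist2h2ab. The log2 fold change of 0.52 (SE 0.276) did not pass (limma adjusted p = 0.172), and without IL-33 replicate 1 it was 0.83 and was called. Its sign turned with equal totals (−0.51). The annotated transcript runs 2445 bases past the stem-loop.

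Of 23 genes tested for synthesis and 3′ processing of histone mRNA, 2 rose and 2 fell, with a median log2 fold change of −0.13, against 17.4% higher and 14.4% lower over all genes. On omitting IL-33 replicate 1, 4 rose and 7 fell, and with equal totals without Rn45s 1 rose and 10 fell. On omitting IL-33 replicate 2, 1 rose and 2 fell. On omitting PBS replicate 1 or 2, 1 rose and 1 fell, and on omitting PBS replicate 3, 1 rose and 0 fell. Npat, the S-phase activator of histone genes, had 48.6, 44.6 and 40.7 after IL-33 and 97.1, 78.6 and 122 in PBS. Its groups did not overlap (log2 fold change −1.12, SE 0.240, limma adjusted p = 0.0117), and the call was lost on omitting PBS replicate 3 (−0.96). Slbp had 221, 229 and 220.3 after IL-33 and 192, 243 and 231 in PBS, groups that overlapped (0.02, SE 0.177, adjusted p = 0.950). Ncbp1, a cap-binding subunit, fell by 0.93 on the log2 scale, and Nelfe, a subunit of the negative elongation factor, and Snrpb, a shared core protein of spliceosomal and U7 particles, rose by 1.05 and 0.55. The Ncbp1 call was lost on omitting PBS replicate 1 (−0.96), 2 (−0.89) or 3 (−0.95). The Snrpb call was lost on omitting IL-33 replicate 2 (0.49) or PBS replicate 1 (0.59), 2 (0.54) or 3 (0.51), and its sign turned with equal totals (−0.49). Rnu7, the U7 RNA gene, was listed at 0 in all libraries.

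Among 16 genes of histone mRNA translation and decay, 4 rose and 4 fell, against 17.4% higher and 14.4% lower over all genes. The 4 that rose were Mif4gd (1.76), a partner of SLBP in translation, the poly(A) polymerases Papd5 (1.29) and Papd7 (0.75), and the helicase Upf1 (0.70), which takes part in histone mRNA decay. The 4 that fell were the exonuclease Xrn1 (−1.29), the helicase Ddx19a (−1.13), the decapping enzyme Dcp2 (−0.98) and the exonuclease Dis3l2 (−0.88), all as log2 fold changes. Omitting PBS replicate 1 left 1 that rose and 1 that fell, omitting PBS replicate 2 or 3 left 1 and 0, and omitting IL-33 replicate 2 left 2 and 0. Omitting IL-33 replicate 1 gave 5 and 8. The list moved in both directions, with a median of −0.24.

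Histone variant and linker genes outside the clusters, most of them made outside S phase, were mostly not called. Of 9 tested, H2afv, a form of H2A.Z, fell (log2 fold change −0.99), against 14.4% of all genes, and the median was 0.00. Its call was lost on omitting PBS replicate 2 (−0.91) or 3 (−0.98). H2afz, the main H2A.Z gene, had 842, 1283 and 2342 after IL-33 and 709, 781 and 677 in PBS, all above the PBS libraries, and did not pass (0.92, adjusted p = 0.0643). H3f3b, which encodes H3.3, was at 0.35 and the linker variant H1f0 at 0.02, and neither was called. Of 21 histone chaperones, which carry histones and hand them to DNA, 1 rose and 5 fell, against 17.4% and 14.4% of all genes. Rbbp7 rose (1.43). The 5 that fell were Asf1b (−1.85), Hjurp (−1.74), Atrx (−1.47), the importin Ipo9 (−0.96) and Ssrp1 (−0.77). The number of chaperone genes that fell was 0 on omitting PBS replicate 2, 1 on omitting PBS replicate 3, 2 on omitting PBS replicate 1 or IL-33 replicate 2, and 7 on omitting IL-33 replicate 1.

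Most genes of DNA replication and S phase, the phase in which these histone genes are read, fell. Of 27 tested, 18 fell and 0 rose, against 14.4% and 17.4% of all genes, with a median log2 fold change of −1.10. With edgeR and DESeq2 0 rose as well, and 17 fell with each. The most negative were Orc1 (−2.95) of the origin recognition complex, Gins1 (−2.09) of the replicative helicase, the DNA polymerase subunit Pola1 (−2.08), the clamp loader subunit Rfc1 (−1.98) and the primase Prim1 (−1.91). Without PBS replicate 1, 2 or 3 the number that fell was 10, 8 and 8. Of 12 markers of cycling cells, 7 fell, against 14.4% of all genes, with a median of −1.63. The summed normalized count of the 12 was 1134 to 1481 after IL-33 and 2143 to 2623 in PBS. Without PBS replicate 1, 4 cycling markers were called lower, and without PBS replicate 2 or 3 there were 2. Top2a, a topoisomerase of dividing cells, had 171, 163 and 78.0 after IL-33 and 492, 693 and 521 in PBS, and Mki67 was not called (−0.33). The H1, H2B and H3 sums were lower after IL-33 as well. Among PBS libraries, replicate 2 had the highest Top2a value (693) and the lowest H1, H2B and H3 sums (4485, 372 and 177). Among IL-33 libraries, replicate 1 had the highest Top2a value, the highest H2B and H3 sums and the lowest H1 sum. The part of S phase and cycling cells in the histone values was not tested.

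**Figure D5:**
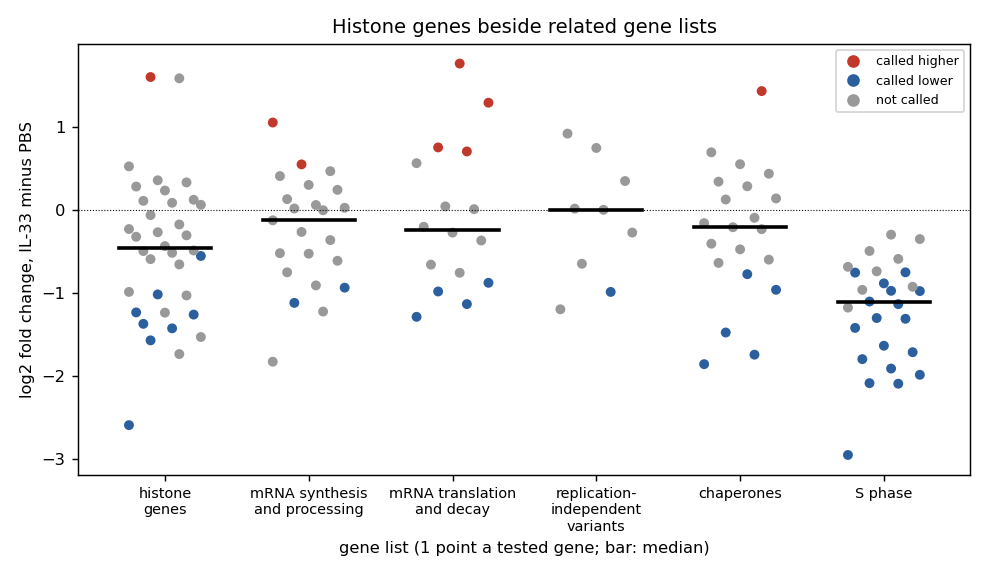
Log2 fold change (IL-33 minus PBS, vertical axis) of every tested gene of the histone genes and of related gene lists, with a bar at each median and colours for genes called higher, lower or not called by limma. The S-phase genes have a median of −1.10 with 18 of 27 called lower, and the histone genes one of −0.46 with 8 of 36.

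Other RNAs made without a poly(A) tail allow a view of how such transcripts behaved in these libraries. Of 4 tested outside the histones, 2 rose and 1 fell, against 17.4% and 14.4% of all genes. Vaultrc5, a vault RNA, rose (2.12), Rpph1, the RNA of RNase P, rose (1.19), and Rmrp, the RNA of RNase MRP, fell (−1.42). Rmrp had 2507, 744 and 625 after IL-33 and 2924, 2542 and 3029 in PBS. IL-33 replicate 1 stood close to the PBS libraries and the other IL-33 libraries well below. Omitting IL-33 replicate 2, IL-33 replicate 3 or any 1 of the PBS libraries left 0 of these genes called.

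Markers of further cell types possible in the culture were read in the same fit, which called 17.4% of all genes higher and 14.4% lower. Of 9 neutrophil markers 3 fell, but 0 did on omitting PBS replicate 2 or 3, 1 on omitting PBS replicate 1, IL-33 replicate 2 or IL-33 replicate 3, and 5 on omitting IL-33 replicate 1. Of 5 mast cell and basophil markers 2 fell, with 0 on omitting any 1 PBS library and 1 on omitting IL-33 replicate 2 or 3. Of 3 progenitor and 2 lymphoid markers tested 0 were called by limma; 1 progenitor marker fell on omitting IL-33 replicate 1 or 3, and 1 lymphoid marker on omitting IL-33 replicate 2. Of 5 erythroid and megakaryocyte markers 1 rose and 1 fell, and 0 rose on omitting replicate 2 or 3 of either group, while 2 fell on omitting IL-33 replicate 1. Of 5 monocyte and macrophage markers 1 rose and 4 were not called, with a median log2 fold change of −0.04. The summed normalized count of that list was 4628 to 5278 after IL-33 and 2311 to 2541 in PBS, so the higher sum does not describe the typical marker. Over the same libraries the sum of all histone genes was 6028 to 7248 after IL-33 and 7799 to 8932 under PBS, beside the eosinophil sums given above. The part of a change in cell types in the histone values was not tested.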

How the data were processed

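Ribosomal RNA-depleted total RNA of 6 libraries was sequenced with a directional kit, per the labels' protocols. The authors deposited a gene table of signal values, which are read counts divided by a size factor per library, made with HISAT2, HTSeq and DESeq2 on mm10, per the submitters' processing notes. Not given in the sources used here are versions, annotation, and strand and multi-mapping settings. Reads were recovered as whole multiples of the smallest step (100% whole within 0.1 read).

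Groups were compared with limma 3.58.1 in R 4.3.3 (2-sided, mean-variance trend) as IL-33 minus PBS, on log2 of the value plus 1. The fit covered the 10544 genes that reached 10 in 3 or more libraries. A Benjamini-Hochberg adjusted p under 0.05 made a call. Fold changes are on the log2(value + 1) scale, which understates changes of low genes. The fit was tested on simulated data. Coordinates and stem-loops came from GENCODE vM21 (GRCm38), and promoters from RefSeq (GRCm38.p6). Members and lists were chosen with earlier results of these data known. Named were called members, the 3 highest tested members per class, Hist4h4, Hist3h2a and Hist2h2be, the 3 highest members below the filter, up to 5 called genes per list and direction, Slbp, Npat, H2afz, H3f3b, H1f0 and Rn45s. Others (Hist1h1d, Hist1h1t, Hist1h2be, Hist1h2bh, Hist1h2ak, Hist1h2bn, Epx, Top2a, Mki67) were named after their values were seen. Alternatives were other pseudocounts, filters and scalings, edgeR 4.0.16 and DESeq2 1.42.0 on recovered reads, a replicate block, each library left out, and IL-33 replicate 1 alone.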

Additional observations from a re-analysis of the deposited data

How the results depend on the processing

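The number of histone genes called higher was 1, and it was 0 with equal totals, 2 with quantile normalization, 2 with edgeR, 2 with DESeq2 and 0 to 3 when 1 library was left out. The number called lower was 8, and it was 29 with equal totals, 18 with equal totals without Rn45s and 3 to 14 when 1 library was left out. The median log2 fold change of the tested members (−0.46) was −0.29 with a filter of 50, −1.48 with equal totals, −0.88 with equal totals without Rn45s, −0.32 with quantile normalization and between −0.45 and −0.30 with 1 library left out. The ratio of the H1 sum was 0.570 and that of the H4 sum 0.636 with equal totals without Rn45s. With equal totals, which moved the median of all genes to −1.06, 9 of 36 members turned sign, of which Hist1h2ak (−0.91), Hist1h4c (−0.93), Hist1h4j (−0.93) and Hist2h2ac (−0.97) were called lower. With equal totals without Rn45s 8 turned and with IL-33 replicate 1 alone 7 of 33, of which Hist2h2ac (−0.63) was called. On leaving out 1 library 7 members turned sign in at least 1 case (Hist1h2ae, Hist1h2ak, Hist1h4a, Hist1h4b, Hist1h4c, Hist1h4j and Hist2h2ac), and 0 of them were called by limma. Equal totals shift all genes by construction, and for the other settings the cause was not tested. Same-numbered libraries deviated from their group means with correlations of 0.046, 0.242 and −0.164, so the numbers were not taken as pairs. With the replicate number as a block 1 member was called higher and 7 lower, Hist1h1c being lost. Precision is limited by 60 to 216 H2B reads in an IL-33 library.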
